A study of Rattus norvegicus with 24 samples.

Results

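The step from 1 to 3 µg/kg of TCDD was examined in rat liver by comparing the 3 RNA sequencing libraries of the 3 µg/kg group with the 3 of the 1 µg/kg group. These 6 libraries, chosen by their dose labels, are part of a series of 24. All rats were female Sprague-Dawley, an outbred stock, with a labelled age of 57 days. Every 4 days each was gavaged with sesame oil, the vehicle, or with 1 of 7 doses of TCDD in it, and the liver was collected on day 28. The 2 groups of the step therefore differed in dose alone, as far as the labels say, and no vehicle library entered the contrast between them. The other groups received vehicle, 10 µg/kg or 1 of the doses up to 0.3 µg/kg, the lowest being 0.01 µg/kg. The series calls the 3 libraries of a group biological replicates. The labels name no batch, and dose cannot be told apart from a batch that went unrecorded.

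TCDD (2,3,7,8-tetrachlorodibenzo-p-dioxin) is a chlorinated dioxin that binds the aryl hydrocarbon receptor. The bound receptor moves to the nucleus, pairs with its partner ARNT and activates genes of xenobiotic metabolism, of which the cytochrome P450 genes of family 1 are the textbook examples. The rat liver takes up and retains dioxin, and repeated exposure is known to alter lipid metabolism there. In RNA from whole liver, fewer cells of a type and less RNA per cell cannot be told apart.

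Genes are given by Ensembl ID, because the count tables and the gene table used here did not pair these IDs with symbols: 0 of the 26404 IDs matched. What the encoded proteins do is therefore not described, and the libraries could not be checked against marker genes of hepatocytes or of other liver cells. Only the 2 largest rises and the 2 largest falls are named, taken from the called genes that averaged 5 CPM or more at the dose where they were higher, and the other genes are described by their levels and their course over the doses.

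Gene counts in the 6 libraries ranged from 12351063 to 15339605. A count of 3 corresponded to about 0.231 CPM (gene counts scaled to a common library size) at 1 µg/kg and was taken as the limit of detection. Alignments that were not unique made up 22.1% ± 0.927 of a table at 3 µg/kg and 22.4% ± 1.13 at 1 µg/kg (SD, n = 3), a difference smaller than the spread (exact two-sided permutation p = 0.90; 3 against 3 cannot go below 0.10). Libraries of the same dose differed from each other nearly as much as libraries of different doses. The SD over genes of the log2 difference between 2 libraries was 0.432 to 0.675 within 1 µg/kg, 0.532 to 0.695 within 3 µg/kg and 0.591 to 0.793 between the doses. The first principal component of the 6 libraries, with 40.1% of the variance, did not separate the doses: 1 µg/kg replicates 2 and 3 lay at 37.3 and 32.5, 1 µg/kg replicate 1 at -17.3, and the 3 µg/kg libraries at 5.29, -46.6 and -11.3. On the second component, with 20.4%, 3 µg/kg replicates 1 and 3 stood apart at 29.6 and 27.3, while 3 µg/kg replicate 2, at -10.3, lay among the 1 µg/kg libraries (-24.7, -9.43 and -12.5).

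Over the step, 18 genes were higher and 21 were lower at 3 µg/kg by edgeR's quasi-likelihood test at a Benjamini-Hochberg adjusted p below 0.05. These 39 genes were 0.312% of the 12496 tested, 0.144% higher and 0.168% lower. The log2 fold changes of the rises ran from 0.91 to 4.48 (median 2.19) and those of the falls from -0.73 to -3.08 (median -1.43), against a median of 0.01 over all genes tested. Fitted changes reached 2-fold in 17 of the 18 rises and 16 of the 21 falls, and 8-fold in 8 rises and 2 falls. In all 39 genes the 3 libraries at 3 µg/kg lay on one side of the 3 at 1 µg/kg. The same absence of overlap held for 7.2% of all tested genes in the upward and 6.3% in the downward direction.

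**Figure D1:**
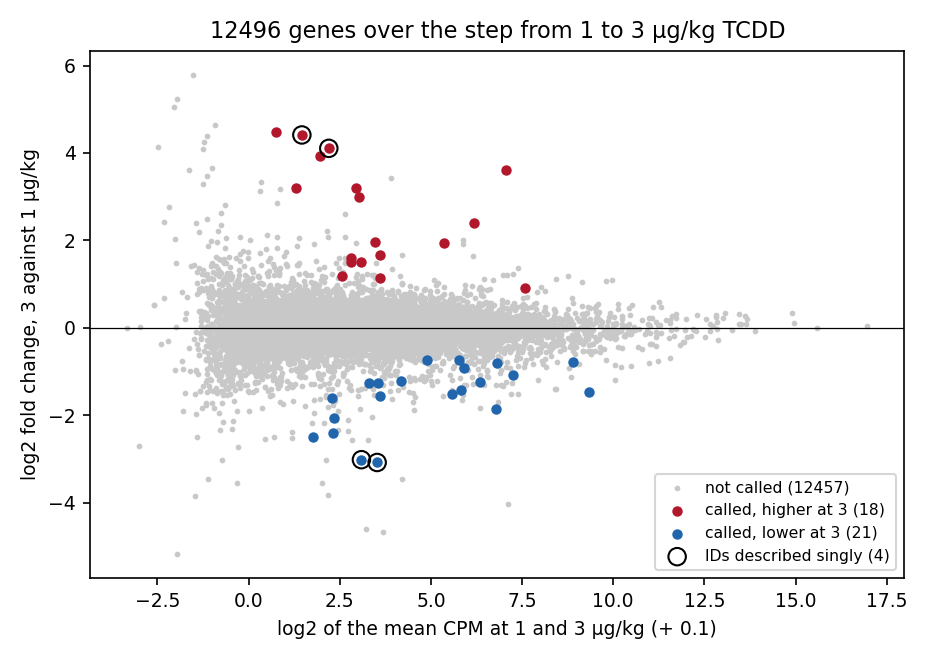
Fold change from 1 to 3 µg/kg (vertical axis, log2) against the mean level at both doses (horizontal axis, log2 of CPM + 0.1) for 12496 genes, 1 point per gene. The 18 called rises (red) reach 4.48 and lie mostly at low levels, the 21 called falls (blue) reach -3.08, and larger fitted changes among the uncalled genes (grey) did not pass the test.

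Large fitted changes were more common than calls. A fitted change of at least 2-fold was seen upward in 224 genes (1.79% of those tested) and downward in 286 (2.29%), of which 17 and 16 were called. At an unadjusted p below 0.05 there were 614 higher and 568 lower genes, 9.46% of all tested, where 625 would be expected by chance. At an adjusted p below 0.10 the counts were 25 higher (0.2%) and 26 lower (0.208%). Calls were found at all but the lowest levels: 17 among the 4930 genes with a mean of 1 to 10 CPM over both groups, 15 among the 5434 with 10 to 100 CPM, 7 among the 990 with 100 CPM or more and 0 among the 1142 below 1 CPM.

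Leaving out a single library, which also cut its group from 3 libraries to 2, changed the number of calls. It was 8 without 1 µg/kg replicate 2, 12 without 1 µg/kg replicate 3, and 18, 13 and 24 without 3 µg/kg replicates 1, 2 and 3. Leaving out 1 µg/kg replicate 1 gave 47. Of the 39 genes, 6 were called in all 6 of these fits, 5 of them rises, while all 39 had the same sign in each fit. A fit of the 6 libraries alone called 12 genes, 8 of them among the 39, and DESeq2 called 103, which held all 39.

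**Figure D2:**
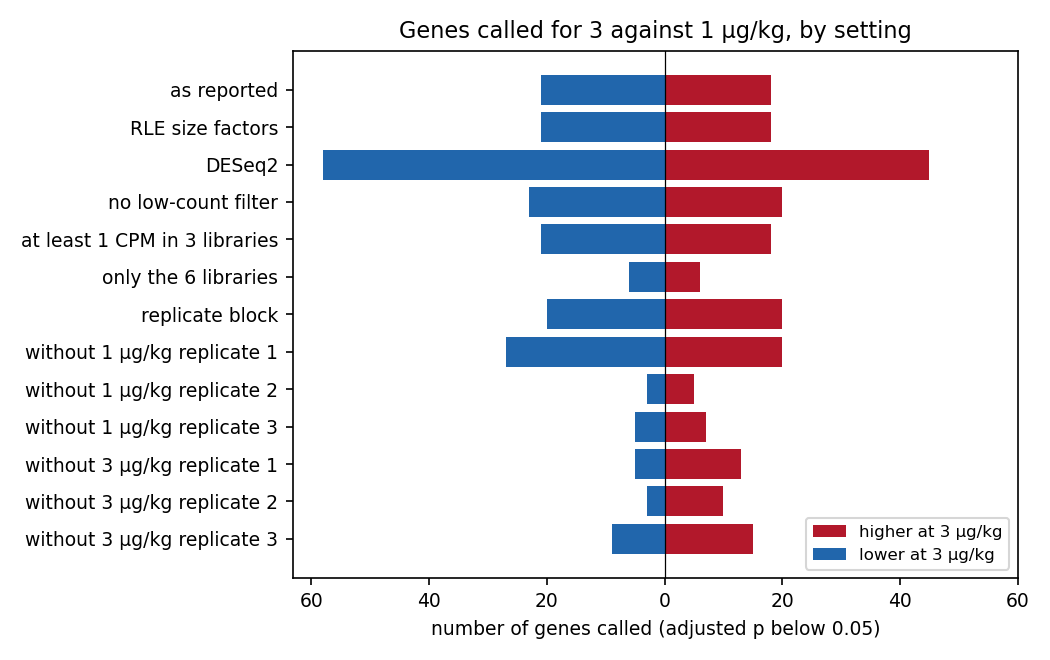
Number of genes called for 3 against 1 µg/kg (horizontal axis), higher at 3 µg/kg to the right in red and lower to the left in blue, for the fit as reported (18 and 21) and 12 other settings. Leaving out 1 µg/kg replicate 2 left 5 and 3 calls, and DESeq2 gave 45 and 58.

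ENSRNOG00000009031 showed the largest rise among the IDs with at least 5 CPM in the higher group. It stood at 0.145, 0.237 and 0.319 CPM at 1 µg/kg, from 2, 3 and 4 counts, and at 6.56, 1.4 and 7.27 CPM at 3 µg/kg, from 97, 16 and 91 counts. The groups did not overlap, but 3 µg/kg replicate 2 was well under the other 2 libraries of its dose. The log2 fold change was 4.41 (SE 0.652; edgeR adjusted p = 0.00254, n = 3 per group). On summed counts, 204 against 9, the ratio of levels was 22.8, with a 95% interval of 11.8 to 50.6 that covers counting error only. Under the settings tried its log2 fold change stayed between 4.08 and 4.86, and the call was lost in the fit of the 6 libraries alone (adjusted p = 0.115).

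Over the other doses ENSRNOG00000009031 had low means up to 0.3 µg/kg and its highest level at 10 µg/kg. Its mean was 0.0282 ± 0.0489 CPM in vehicle and 0.212 ± 0.299 CPM at 0.3 µg/kg (SD, n = 3), both means under the limit of detection. Replicate 3 at 0.3 µg/kg, however, held 0.554 CPM from 7 counts, above all 3 libraries at 1 µg/kg. The change of this gene from 1 to 3 minus that from 0.3 to 1 µg/kg was 4.33 on the log2 scale (SE 1.56). That difference did not pass (edgeR adjusted p = 0.764). At 10 µg/kg the gene reached 32.9 ± 4.62 CPM, with 30.5, 38.3 and 30.1 CPM in the 3 libraries. Every 10 µg/kg library thus stood above every 3 µg/kg library.

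ENSRNOG00000014656 showed the next largest rise, and its libraries were ordered differently. It stood at 1.02, 0.158 and 0.239 CPM at 1 µg/kg (14, 2 and 3 counts) and at 2.44, 19.3 and 3.83 CPM at 3 µg/kg (36, 221 and 48 counts). Here 3 µg/kg replicate 2, the lowest library of its dose for ENSRNOG00000009031, was the highest by far, and 1 µg/kg replicate 1 was the highest of its dose. The log2 fold change was 4.11 (SE 0.707; edgeR adjusted p = 0.0132), and summed counts of 305 against 19 gave a ratio of 16.2 (95% interval 10.2 to 27.2, counting error only). Its fold change moved by over 1.5 times with either of those libraries, to a log2 value of 2.69 without 3 µg/kg replicate 2 (adjusted p = 0.0705) and of 5.35 without 1 µg/kg replicate 1 (adjusted p = 0.00977). The call was also lost without 1 µg/kg replicate 2 or 3 (adjusted p = 0.0786 and 0.0733) and in the fit of the 6 libraries alone (adjusted p = 0.298).

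At every dose up to 0.3 µg/kg, ENSRNOG00000014656 held at most 2 counts in a library. At 10 µg/kg its libraries held 21.4, 10.6 and 12.1 CPM, a range that included 3 µg/kg replicate 2.

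ENSRNOG00000010079 showed the largest fall. It stood at 9.86, 15.0 and 36.3 CPM at 1 µg/kg (136, 190 and 456 counts) and at 1.22, 3.32 and 2.79 CPM at 3 µg/kg (18, 38 and 35 counts). The lowest 1 µg/kg library was thus above the highest 3 µg/kg library, although the 1 µg/kg libraries spread widely. The log2 fold change was -3.08 (SE 0.638; edgeR adjusted p = 0.0332), an 8.54-fold lower level on summed counts (95% interval 6.86 to 10.7, counting error only). Without 1 µg/kg replicate 3, its highest library, the log2 fold change was -2.37 (adjusted p = 0.278). The call was also lost without 1 µg/kg replicate 2, without any of the 3 µg/kg libraries and in the fit of the 6 libraries alone, with adjusted p of 0.0774 to 0.157.

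Group means of ENSRNOG00000010079 were lower at 1 µg/kg than at any lower dose. They were 105 ± 56.2 CPM in vehicle, 56.0 ± 12.5 at 0.01, 75.2 ± 46.3 at 0.03, 42.8 ± 17.3 at 0.1 and 27.1 ± 5.30 at 0.3 µg/kg, and 20.4 ± 14.0 CPM at 1 µg/kg (SD, n = 3). At 10 µg/kg the mean was 0.523 ± 0.351 CPM.

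ENSRNOG00000020775 fell from 9.64, 16.8 and 18.6 CPM at 1 µg/kg (133, 213 and 234 counts) to 1.42, 2.01 and 2.16 CPM at 3 µg/kg (21, 23 and 27 counts). The lowest 1 µg/kg library, at 9.64 CPM, was well above the highest 3 µg/kg library, at 2.16 CPM, although the 1 µg/kg libraries spread up to 18.6 CPM. The log2 fold change was -3.02 (SE 0.562; edgeR adjusted p = 0.0163), an 8.12-fold lower level on summed counts (95% interval 6.33 to 10.5, counting error only). The size stayed between -2.83 and -3.26 under the settings tried. The adjusted p was 0.0203 in the fit of the 6 libraries alone and 0.0708 to 0.0942 without 1 µg/kg replicate 2 or 3 or any 3 µg/kg library, so that the call was lost in these 5 fits.

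The group means of ENSRNOG00000020775 did not decline steadily. They were 18.04 ± 14.7 CPM in vehicle, 13.98 ± 5.21 at 0.01, 8.08 ± 2.71 at 0.03, 7.98 ± 1.12 at 0.1 and 7.19 ± 3.81 at 0.3 µg/kg. At 1 µg/kg the mean was 15.0 ± 4.76 CPM and at 10 µg/kg 3.96 ± 2.34 CPM (SD, n = 3). The higher mean at 1 than at 0.3 µg/kg was not called (log2 fold change 1.06, edgeR adjusted p = 0.841). Nor was 1 µg/kg against vehicle (-0.27, edgeR adjusted p = 0.835). The change from 1 to 3 µg/kg exceeded that from 0.3 to 1 µg/kg by -4.08 on the log2 scale (SE 0.853) at an unadjusted p of 0.000109, which did not pass over all genes (edgeR adjusted p = 0.694).

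**Figure D3:**
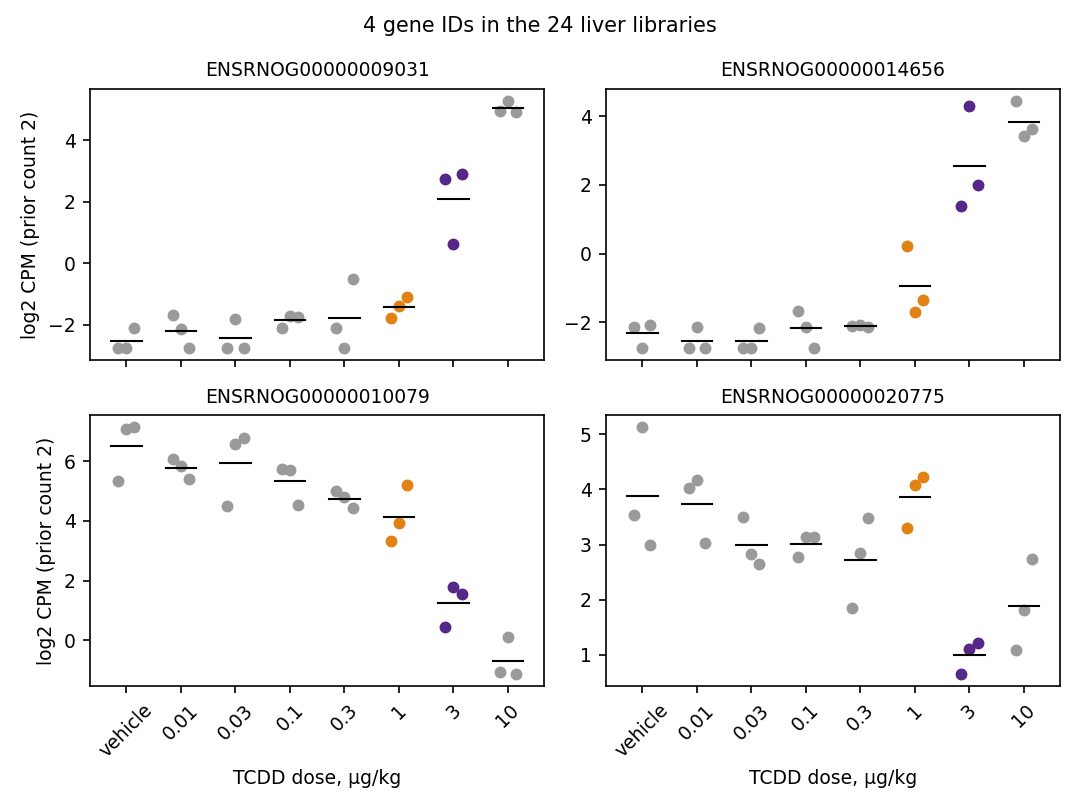
Level of the 4 IDs described singly (vertical axis, log2 CPM with a prior count of 2) in the 24 libraries by dose (horizontal axis, µg/kg), 1 point per library and a bar at the mean of 3, with 1 µg/kg in orange and 3 µg/kg in purple. Orange and purple points do not overlap in any of the 4 panels, and the order of the 3 µg/kg libraries differs between the 2 rises at the top.

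The 18 rises fell into genes that were nearly silent without TCDD and genes that were already expressed. For 10 of them the vehicle mean was below 1 CPM (0.0282 to 0.344 CPM). At 0.3, 1, 3 and 10 µg/kg the median of their group means was 0.281, 0.973, 9.46 and 41.2 CPM. Their log2 fold changes over the step ran from 1.60 to 4.48, with a median of 3.41.

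The other 8 rises had vehicle means of 1.11 to 22.6 CPM. For these the medians at the same doses were 4.67, 5.09, 17.1 and 27.9 CPM. Their log2 fold changes over the step ran from 0.91 to 2.40, with a median of 1.5. A gene with few counts could be called only with a large change, so the order of these medians follows in part from the choice of genes.

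The 21 falls were all expressed in vehicle, at 5.82 to 1400 CPM. For the 6 falls with at least 100 CPM at 1 µg/kg, the median of the group means in vehicle and at 1, 3 and 10 µg/kg was 300.1, 190.3, 89.9 and 64.6 CPM. For the other 15 it was 34.8, 17.9, 6.15 and 7.46 CPM. At 3 µg/kg 4 of the falls were below 2 CPM, and none was without counts in all 3 libraries.

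As a share of all gene counts, the 18 rises together went from 0.0223% ± 0.00149 to 0.0794% ± 0.0149 over the step, and the 21 falls from 0.257% ± 0.00653 to 0.112% ± 0.0173 (SD, n = 3). The genes called over the step were thus a small part of the liver transcript pool. Among the 3 µg/kg libraries, replicate 2 held the highest value for 11 of the 18 rises and replicate 1 for 0. Among the 1 µg/kg libraries, replicate 1 held the highest value for 11 of the rises and the lowest for 11 of the 21 falls.

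The libraries of vehicle, of 10 µg/kg and of the doses up to 0.3 µg/kg did not enter the fold changes from 1 to 3 µg/kg, but they entered the expression filter and the estimate of spread behind the calls. The 10 µg/kg libraries stood apart in their alignments: 29.3% to 34.98% were not unique, against 21.04% to 25.8% in the other 21 libraries. The part of this in the results at 10 µg/kg was not tested. All 18 rises were higher and 20 of the 21 falls lower at 10 µg/kg than in vehicle by edgeR's test at an adjusted p below 0.05, where 14.7% and 13.5% of all tested genes were called higher and lower. The median log2 fold change of the rises at 10 µg/kg was 8.04, or 6.18 with levels under the limit of detection set to that limit, as applied to the vehicle level of 9 of them. The median of the falls was -1.96, against -0.02 over all genes.

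At 0.3 µg/kg, 2 of the 18 rises and 1 of the 21 falls were called against vehicle, where 1.92% of all tested genes were called higher and 0.144% lower. The fitted difference from vehicle was above 0 for 16 of the rises and below 0 for 17 of the falls, with medians of 0.84 (0.41 with the limit of detection applied) and -0.50. For 46.9% and 53.1% of all tested genes it was above and below 0. At the lower doses of 0.01, 0.03 and 0.1 µg/kg none of the rises was called higher and none of the falls lower. Of all tested genes, 0.008%, 0.016% and 0.872% were called higher there and 0%, 0% and 0.048% lower. The medians of the falls were -0.05, -0.12 and -0.30 at these doses. The medians of the rises were -0.04, 0.20 and -0.03, and those of all genes tested 0.01, 0.002 and -0.02. Every dose was set against the same 3 vehicle libraries, so these values are not independent of each other. The vehicle libraries themselves had medians from -0.19 to 0.30 over the 21 falls, relative to the vehicle mean.

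**Figure D4:**
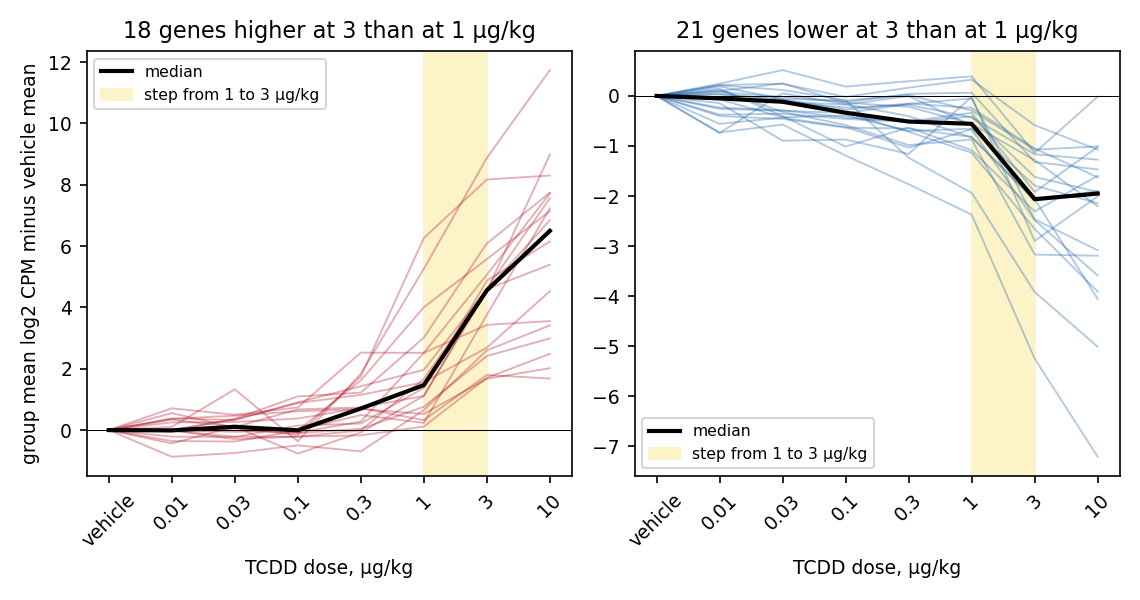
Group mean of log2 CPM (prior count of 2) minus the vehicle mean (vertical axis) by dose (horizontal axis, µg/kg), 1 thin line per gene, for the 18 rises (left) and the 21 falls (right), with the median in black and the step from 1 to 3 µg/kg shaded. The rises go on to higher means at 10 µg/kg in 17 of 18 genes, while 14 of the 21 falls have a lower mean at 10 than at 3 µg/kg.

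At 10 µg/kg the mean was above that at 3 µg/kg for 17 of the 18 rises. The exception stood at 4.42 ± 0.656 CPM at 1 µg/kg, 12.5 ± 1.14 CPM at 3 µg/kg and 11.9 ± 3.76 CPM at 10 µg/kg (SD, n = 3), so that its level at the highest dose was within the spread of that at 3 µg/kg. Of the 21 falls, 14 had a lower mean at 10 than at 3 µg/kg and 7 a higher one. By edgeR's test of 10 against 3 µg/kg, 9 of the rises were called higher, 4 of the falls lower and 1 fall higher. Of all tested genes, 2.46% were called higher and 2.83% lower. Because the genes were chosen on the same 3 µg/kg libraries, some return between 3 and 10 µg/kg can follow from the choice.

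A single fall was not called at 10 µg/kg against vehicle, and it was back at the vehicle level there. Its group means lay between 55.4 and 78.3 CPM in vehicle and at every dose from 0.01 to 1 µg/kg, dropped to 24.4 ± 5.05 CPM at 3 µg/kg and were 53.9 ± 15.2 CPM at 10 µg/kg (SD, n = 3). For 10 µg/kg against vehicle its log2 fold change was -0.04 (edgeR adjusted p = 0.935), and for 10 against 3 µg/kg it was 1.14 (edgeR adjusted p = 0.0229). The latter contrast shares the low 3 µg/kg libraries on which the gene was called, so its p-value favours a return. Its change from 3 to 10 µg/kg minus that from 1 to 3 µg/kg was 2.66 on the log2 scale, which did not pass (edgeR adjusted p = 0.0674). This gene was picked out after its values were seen.

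The steps on either side had their own counts, and each shares a group with the step described here. From 0.3 to 1 µg/kg 7 genes were higher and 0 lower (0.056% of those tested were called). From 3 to 10 µg/kg 307 were higher (2.46%) and 354 lower (2.83%), 5.29% in all. The 18 rises had a median log2 fold change of 0.97 from 0.3 to 1, 2.19 from 1 to 3 and 1.23 from 3 to 10 µg/kg. The 21 falls had medians of -0.09, -1.43 and -0.28. Because the genes were chosen on the middle step, its larger values can follow from the choice. Against vehicle, which also shares a group with it, 8 of the rises were called higher (1.7% of all tested genes) and 5 of the falls lower (0.416%) at 1 µg/kg, and all 18 and all 21 at 3 µg/kg (7.94% and 5.32%).

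Whether a gene changed by a different amount in neighbouring steps was tested on all 12496 genes. By edgeR's test 0 genes passed an adjusted p of 0.05 for the step from 1 to 3 against that from 0.3 to 1 µg/kg (801 at an unadjusted p below 0.05, 6.41%), and DESeq2 called 2. For the step from 3 to 10 against that from 1 to 3 µg/kg, edgeR also called 0 (1507 unadjusted, 12.1%), while DESeq2 called 60. That second count was 9 with no low-count filter, 10 with the replicate number as a block, 5 without 1 µg/kg replicate 1 and 1 without 3 µg/kg replicate 3. Each difference between steps draws on 3 groups and is less precise than a single step.

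Genes grouped by their calls at 10 µg/kg against vehicle were shifted over the step in the direction of those calls, although few of them were called singly. Of the 1837 genes higher at 10 µg/kg than in vehicle, 72.9% had a fitted log2 fold change above 0 from 1 to 3 µg/kg, with a median of 0.18, against 51% and 0.01 for all genes tested. An unadjusted p below 0.05 was found for 16.9% of them upward and 1.03% downward, against 4.91% and 4.55% of all genes. Of the 1693 genes lower at 10 µg/kg, 67.6% were below 0, against 49% of all genes, with a median of -0.11 that was -0.07 without 1 µg/kg replicate 1. There the unadjusted p was below 0.05 for 14.2% downward and 1.18% upward. The 8966 genes not called at 10 µg/kg had a median of -0.0003, with 3.17% upward and 3.45% downward.

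The shift was larger for genes that changed more at 10 µg/kg. The 157 genes at least 8-fold higher there had a median log2 fold change of 0.99 over the step (quartiles 0.45 and 1.74), and 90.4% were above 0. The 75 genes at least 8-fold lower had a median of -0.95 (quartiles -1.44 and -0.45), and 89.3% were below 0. Taken across genes, none of which is an independent replicate, the fold change over the step and that at 10 µg/kg against vehicle had r = 0.42 and rho = 0.27 over 12496 genes, with no library in common. The slope was 0.20.

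The individual libraries showed the same order over these genes. Relative to the 1 µg/kg mean, the median log2 level of the 157 genes was -0.27, 0.17 and 0.10 in the 1 µg/kg libraries and 0.89, 0.78 and 1.11 in the 3 µg/kg libraries. For the 75 genes these medians were 0.37, -0.21 and -0.13 at 1 µg/kg and -0.67, -1.13 and -0.74 at 3 µg/kg. In both, the 2 doses did not overlap, and 1 µg/kg replicate 1 was the library farthest from the 3 µg/kg group. For all 1837 higher genes the medians in the 1 µg/kg libraries were -0.09, 0.06 and 0.04. Those in the 3 µg/kg libraries were 0.12, 0.23 and 0.24, so that every 3 µg/kg library lay above every 1 µg/kg library. The same order held over all genes tested, where the gap was far smaller. There the medians were 0.0078, -0.0017 and 0.0012 at 1 µg/kg and 0.0106, 0.0293 and 0.0098 at 3 µg/kg. The absence of overlap was thus not particular to these genes.

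**Figure D5:**
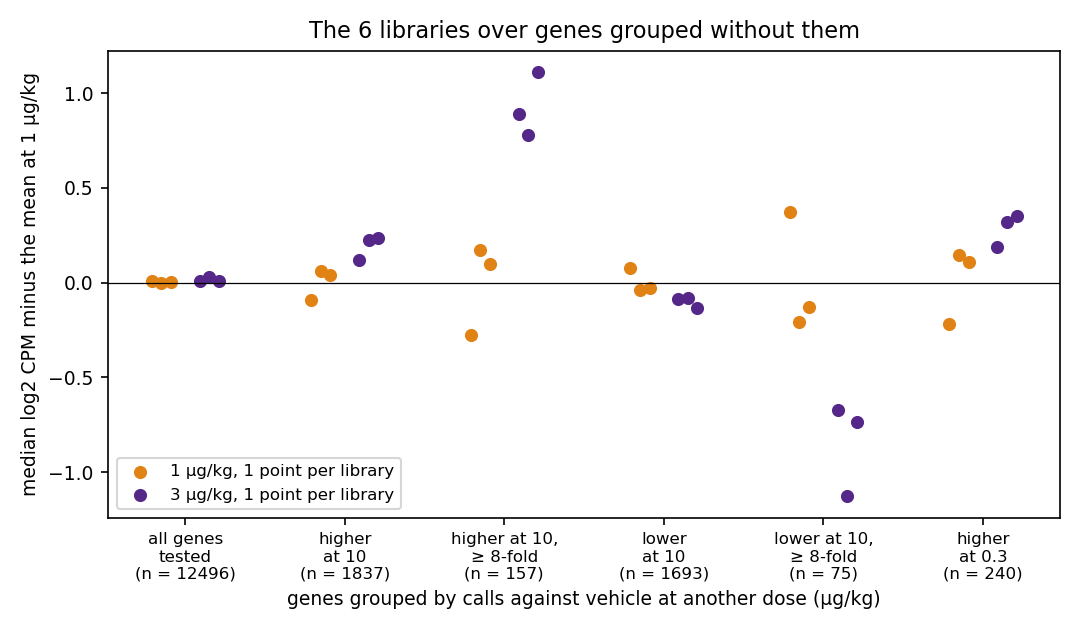
Median over genes of log2 CPM minus the mean of the 1 µg/kg group (vertical axis) in each of the 6 libraries, 1 point per library, for genes grouped by their calls against vehicle at 10 or 0.3 µg/kg (horizontal axis, number of genes in brackets). All 3 µg/kg points (purple) lie above the 1 µg/kg points (orange) for the genes higher at 10 or 0.3 µg/kg and below them for the genes lower at 10 µg/kg, and the genes at least 8-fold changed show the widest gap. Over all genes tested the purple points also lie above the orange ones, but reach only 0.0293.

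Of the 240 genes called higher at 0.3 µg/kg than in vehicle, 2 were called higher over the step and 56 (23.3%) had an unadjusted p below 0.05 upward. Their median log2 fold change from 1 to 3 µg/kg was 0.27, and 84.2% of the fitted values were above 0, against 51% for all genes tested. Their library medians were -0.22, 0.14 and 0.11 at 1 µg/kg and 0.19, 0.32 and 0.35 at 3 µg/kg. From 3 to 10 µg/kg, a step that shares the 3 µg/kg libraries, the median of the same genes was 0.03. The 1633 genes called higher at 10 but not at 0.3 µg/kg had medians of 0.16 from 1 to 3 and 0.42 from 3 to 10 µg/kg. The 36 genes called higher at 0.3 but not called at 10 µg/kg had medians of 0.08 and -0.24. Both of these groups were chosen in part on the 10 µg/kg libraries, which also enter the step from 3 to 10 µg/kg. A higher median there for the 1633 genes and a lower one for the 36 can follow from that choice. These contrasts between groups of genes were not tested.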

How the data were processed

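RNA sequencing counts came from the livers of 24 rats in 8 dose groups of 3. The authors deposited a raw count for each Ensembl ID, a whole number without normalisation. TRIzol was used to isolate RNA and an Illumina TrueSeq kit to make the libraries, per the labels' protocols. The submitters' processing notes name TopHat 1.4.1 and HTSeq 0.6.1, and also SAMtools 0.1.2, cutadapt 1.4.1, FastQC 0.11.2 and DESeq. The sources used here do not give the strand setting, annotation or genome build, so overlapping, antisense and near-identical genes are uncertain. HTSeq summary rows that name no gene, 35.8% to 36.9% of the 6 tables, were left out.

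edgeR 4.0.16 (R 4.3.3) was run on all 24 libraries with a mean per group, filterByExpr (12496 of 18198 IDs with a count) and TMM scaling. The design left 16 residual degrees of freedom per gene, and the quasi-likelihood fit moderated the spread of each gene by that of the others. glmQLFTest was followed by Benjamini-Hochberg adjustment over all genes tested, with calls at an adjusted p below 0.05. All groups entered one estimate of spread per gene, and the common biological coefficient of variation over genes was 22.3%. SE is the log2 fold change divided by the square root of F. P-values measure the spread between these libraries. Replicates differed by more than sampling noise, with chi-square of 13.3 to 51.8 per degree of freedom. Single values were tested by exact permutation.

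Simulated counts for 3 against 1 µg/kg had 200 changed genes, and the test, over 12317 genes, called 55 of 100 changed 2-fold and 87 of 100 changed 4-fold, with 6 false among 148 calls. The alternatives were RLE scaling, DESeq2 1.42.0, other low-count filters, the 6 libraries alone, the replicate number as a block, a minimum fold change and leaving out each library. Their use on the differences between steps, on genes grouped by other doses and, for leaving out libraries, on alignments that were not unique was chosen after seeing the data. The rule for named genes took the largest called changes whose libraries did not overlap and whose higher group had a mean of at least 5 CPM. It provided for IDs without symbols by naming 2 rises and 2 falls. Gene lists by symbol, cell type markers included, could not be applied. The comparison, the lists and the rule were chosen with earlier results of these data known.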

Additional observations from a re-analysis of the deposited data

How the results depend on the processing

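RLE scaling, the filter of at least 1 CPM in 3 libraries, no low-count filter and a minimum of 2-fold left the number of called genes within 1.5 times of 39 (39, 39, 43 and 33). DESeq2 called 103 genes (45 higher and 58 lower) and the fit of the 6 libraries alone 12 (6 and 6). Leaving out 1 library gave 8 to 47 calls, 5 to 20 higher and 3 to 27 lower. With 2 libraries left in a group, they are assumed to vary like the other groups. Of the called genes, 91.7% to 100% had the same direction at 10 µg/kg against vehicle under all settings. The 4 named IDs kept their direction in all 12 settings and their calls in 11 (ENSRNOG00000009031), 8 (ENSRNOG00000014656), 6 (ENSRNOG00000010079) and 7 (ENSRNOG00000020775). Genes for which the step from 3 to 10 differed from that from 1 to 3 µg/kg numbered 0 as reported, 60 by DESeq2, 9 with no low-count filter, 10 with the replicate block and 0 to 5 without 1 library. For the step from 1 to 3 against 0.3 to 1 µg/kg DESeq2 called 2, and leaving out a library gave 0 throughout. Where counts moved, the cause was not tested. The replicate block called 40 genes for 3 against 1 µg/kg, 38 of them among the 39. Same-numbered libraries of the 2 doses had correlations of -0.245, -0.231 and 0.079 between their deviations. Differently numbered ones had -0.169 to 0.289. These 3 same-numbered pairs gave no sign that the numbers pair the libraries, but are too few to settle it. Medians of the genes at least 8-fold changed at 10 µg/kg stayed between 0.79 and 1.15 for the higher and -0.71 and -1.03 for the lower genes, and those of all genes called there between 0.14 and 0.23 and between -0.07 and -0.13. The difference in not-unique alignments, -0.263 points, ranged from -0.752 to 0.356 without 1 library. With 3 libraries per group, changes near 2-fold were often missed in simulation, so an uncalled gene is not shown to be unchanged.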
